A study of Drosophila melanogaster with 41 samples.

Results

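The 150 genes described here were those with the steepest decline in RNA between early embryos and the later stages of the series. They were selected on 3 groups of libraries: the 7–8 h after egg laying (AEL) embryos of the control genotype fnenFNE, the wild-type embryos of 14–16 h AEL and the wild-type adult heads. Counts were summed per gene and scaled to 1000000 counts per library (CPM). Of 17027 genes in the count tables, 6619 reached a mean of at least 10 CPM in the 7–8 h control. The 150 members are those among the 6619 with the highest log2 ratio of that mean plus 1 to the larger of both wild-type means plus 1. Their ratios ran from 3.77 to 8.92 with a median of 4.53. At the edge of the selection stood Mcm6, the last gene taken, with a ratio of 3.77, from 190.8 CPM in the 7–8 h control and 13.0 CPM in wild-type 14–16 h embryos. The nearest gene left out was wbl, also at 3.77, with 150.6 and 10.1 CPM. Because the 3 groups chose the members, their levels there are given as a description and were not tested.

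The series held 41 mRNA-seq libraries of male Drosophila melanogaster, each made from a pool of 15 whole embryos or 12 adult heads. Each embryo group had 4 libraries and each head group had 3, labelled as separate pools. At 14–16 h AEL the groups were wild type, Δelav (a null mutation of elav, lethal to embryos), elavmin and Δelav,fnenFNE. Adult heads, collected at an adult age of 72 h, came from wild type, elavmin and Δelav,fnenFNE. ELAV and FNE are RNA-binding proteins of neurons that direct alternative splicing and polyadenylation. The elavmin allele is a frameshift that disrupts the last RNA-recognition motif of ELAV and leaves a viable fly with very little, truncated protein. The fnenFNE allele lacks the introns around a mini-exon of fne, so that FNE is made only in its nuclear form, nFNE, with an epitope tag. At 7–8 h AEL the groups were fnenFNE alone, which served as control, elavmin,fnenFNE, Δelav,fnenFNE and elavnFNE, in which tagged nFNE replaces the coding region of elav. The 7–8 h control therefore carries an altered fne gene, as do the elavmin and Δelav embryos of that age. The labels give elavnFNE alone, but the study describes these flies as also carrying fnen, an fne allele without the mini-exon, so comparisons of elavnFNE with the other groups differ at fne as well as at elav. Δelav is a null allele, elavmin a single CRISPR allele, and the embryos were taken from stocks with fluorescent balancer chromosomes by the absence of fluorescence.

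At the age of the early collection the Drosophila nervous system is being built: neuroblasts leave the neuroectoderm, divide asymmetrically, and their daughters become neurons and glia. Notch signalling decides which ectodermal cells become neuroblasts, and its direct targets are the genes of the Enhancer of split complex, E(spl), which encode basic helix-loop-helix repressors and small Bearded family proteins that act on Notch ligand activity. Proneural and neuroblast factors, the machinery of mitosis and S phase, and patterning genes are active in the same tissue, and most embryonic cells leave the cell cycle before the later collection.

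By known function, 12 members belonged to Notch signalling (E(spl) and Bearded families), 11 to neural precursors, 36 to mitosis and cytokinesis, 12 to DNA replication and the G1/S transition, 10 to patterning and mesoderm, 5 to apical and secreted matrix and 4 to chromatin. Another 9 were noncoding RNAs by symbol, and 51 were assigned no shared role. Of the 25 measured genes of a list of Notch and E(spl) genes, 12 were members, as were 27 of 45 cell cycle and DNA replication genes (CycB, CycB3, polo and fzy among them) and 8 of 37 proneural and neuroblast genes (sens, mira, wor and dpn among them). The segment polarity list had gsb and ptc, and the lists of gap and pair-rule genes, mesoderm, Dpp signalling, organ regulators and haemocytes had 1 member each (ftz, Him, tld, rib and the merged gene gcm+CG31709). The lists of neuron differentiation, muscle, photoreceptor, cuticle, fat body, maternal, ecdysteroid synthesis and receptor tyrosine kinase genes had none. Of the members, 147 could be matched to a symbol, and 5 were merged genes whose overlapping exons were counted together.

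The members tended to be compact. Of the 150, 31 (20.67%) consisted of a single exon bin, against 394 (6.09%) of the 6469 other genes that reached 10 CPM in the 7–8 h control. In the Notch role 11 of 12 members were of that kind. The median genomic span was 2408 bases, against 3250 for the other genes. The 36 mitosis members had a median of 3464 bases, with 5.56% of a single bin. Medians of the patterning and matrix members were 4316.5 and 5309 bases. On dm6, 9 E(spl) members lay within chr3R:25997621-26041008 and 5 members (CG13465, Tom, Brd, Ocho and lncRNA:marge) within chr3L:14943730-14977631. The X chromosome held 15 members, 10% of them, and 16.54% of the other genes, and the Y held 1, FDY.

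The E(spl) and Bearded members carry short letters near their 3′ ends that are known in Drosophila as pairing sites for microRNAs. Examples are shown from members called and not called in elavnFNE at 7–8 h, and a link between the letters and those calls was not tested. In the last 300 bases of each gene on its own strand, the Brd box (AGCTTTA) was found in 7 of 12 Notch members (58.33%) and in 2.95% of 6064 other genes. The GY box (GTCTTCC) was found in 5 of 12 (41.67%) against 0.76%, and the K box (TGTGAT) in 10 of 12 (83.33%) against 7.52%. None of the 35 mitosis and cytokinesis members with a window had a Brd or GY box. No motif contains another, but flanks of neighbouring sites can overlap, as in Brd. Sequences are from RefSeq, Release 6 of the genome (the dm6 build), written 5′ to 3′ on the gene's strand with the motif in capitals:
Tom GY box, chr3L:14970184-14970208, plus strand: cgaatcattGTCTTCCatgtttgtt
Brd Brd box, chr3L:14973125-14973149, plus strand: caaatatccAGCTTTAatcattgtc
Brd GY box, chr3L:14973138-14973162, plus strand: ttaatcattGTCTTCCatctatgtt
E(spl)m4-BFM Brd box, chr3R:26023956-26023980, minus strand: tggatctccAGCTTTAatcaacgtc
E(spl)m5-HLH Brd box, chr3R:26028878-26028902, minus strand: caacacaacAGCTTTAatagttata
E(spl)m7-HLH K box, chr3R:26037849-26037872, plus strand: agttaagtcTGTGATagggcacgc
E(spl)mgamma-HLH Brd box, chr3R:26000686-26000710, plus strand: aacacacaaAGCTTTAgatgaggac
Around the transcription start (250 bases before to 50 after, either strand), the heptamer CAGGTAG, the core of the sites bound by the early embryonic activator Zelda, was found in 15 of 145 members (10.34%) and in 1.32% of 6070 other genes. The DNA replication-related element TATCGATA was found in 7.59% of members and 16.21% of the others. For the E box CAGCTG the shares were 13.1% and 21.0%, and for the E2F site TTGGCGC 6.21% and 5.78%. TATAAA, read on the gene's own strand only, was found in 30.34% and 29.62%. The Su(H) core GTGGGAA, the binding letters of the Notch pathway's DNA-binding protein, was found in 3 of 12 Notch members (25.0%) and 3.21% of the others. These 3 sites are shown because they lie by early patterning and proneural members:
sisA Zelda heptamer, chrX:11322505-11322529, minus strand: atccggatgCAGGTAGgcggtgtcc
ftz Zelda heptamer, chr3R:6864109-6864133, plus strand: gccgcgcagCAGGTAGgcaccgtac
l(1)sc Zelda heptamer, chrX:409589-409613, plus strand: tttcgagggCAGGTAGccaggatcc
Each match is a match of letters in a window and was not tested as a site.

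In the 7–8 h control the members' mean levels ran from 14.5 to 2777 CPM with a median of 132.8. In wild-type 14–16 h embryos the median was 3.06 CPM and 38 members were below 1 CPM. In wild-type heads it was 0.408 CPM, with 104 members below 1 CPM. The members' summed share of the counts was 3.37–3.64% in all 7–8 h libraries, 0.1003–0.1109% in wild-type 14–16 h embryos and 0.0244–0.0256% in wild-type heads. The steepest ratio was that of nw, which encodes a lectin-like protein: its 4 control libraries at 7–8 h held 1504, 1512, 1587 and 1460 CPM, the 4 wild-type libraries at 14–16 h held 2.16, 2.19, 2.25 and 1.92 CPM, and the 3 wild-type head libraries held 1.05, 0.952 and 0.88 CPM. CG43332 followed with 316, 386, 397 and 353 CPM at 7–8 h, 0.351–0.483 CPM at 14–16 h and no count in wild-type heads, where a count of 0 allows up to 0.132–0.143 CPM per library (3 counts, counting error only). No library of a later group reached the range of the early group for either gene.

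The Bearded family member Tom went from 489–509 CPM at 7–8 h to 1.53–2.02 CPM at 14–16 h. Ama, a secreted immunoglobulin-domain protein, fell from a mean of 987 CPM to 7.59 CPM, Obp99a, an odorant-binding protein, from 1541 to 14.0 CPM, and lmd, a zinc finger factor of myoblasts, from 258.0 to 1.37 CPM. Other genes among the 25 steepest were CG12011 (1922 to 8.82 CPM), link (438.6 to 1.51 CPM), CG13427, the noncoding RNA genes lncRNA:CR9284 and lncRNA:marge, CG7763, yellow-e3, CG4440, Ocho, sala+CG43355, E(spl)mgamma-HLH, Muc30E, E(spl)malpha-BFM, Ir64a, E(spl)mdelta-HLH, CG1273, CG18088 and the mitotic cyclins CycB (747.0 to 10.9 CPM) and CycB3 (347.4 to 5.62 CPM).

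The roles differed in what remained. The Notch members had a median of 119.1 CPM early, 0.98 CPM at 14–16 h and 0.031 CPM in heads. The mitosis members went from 139.9 to 4.94 and 0.832 CPM, and the replication members, licensing factors such as Mcm2, Mcm5 and Mcm7 and the CDK inhibitor dap, from 188.8 to 10.8 and 3.72 CPM. Of the 4 chromatin members, HmgD and Set stayed above 10 CPM at both later stages, whereas Chd3 had 1.96 CPM at 14–16 h and 0.061 CPM in heads. HmgD, an HMG box protein, had 2742–2816 CPM at 7–8 h, 178–185 CPM at 14–16 h and 32.0–36.7 CPM in heads, the highest later levels of any member. For 14 members the wild-type head mean was above the 14–16 h mean. In bulk samples such as these, fewer cells of a type and less RNA per cell cannot be told apart.

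**Figure D1:**
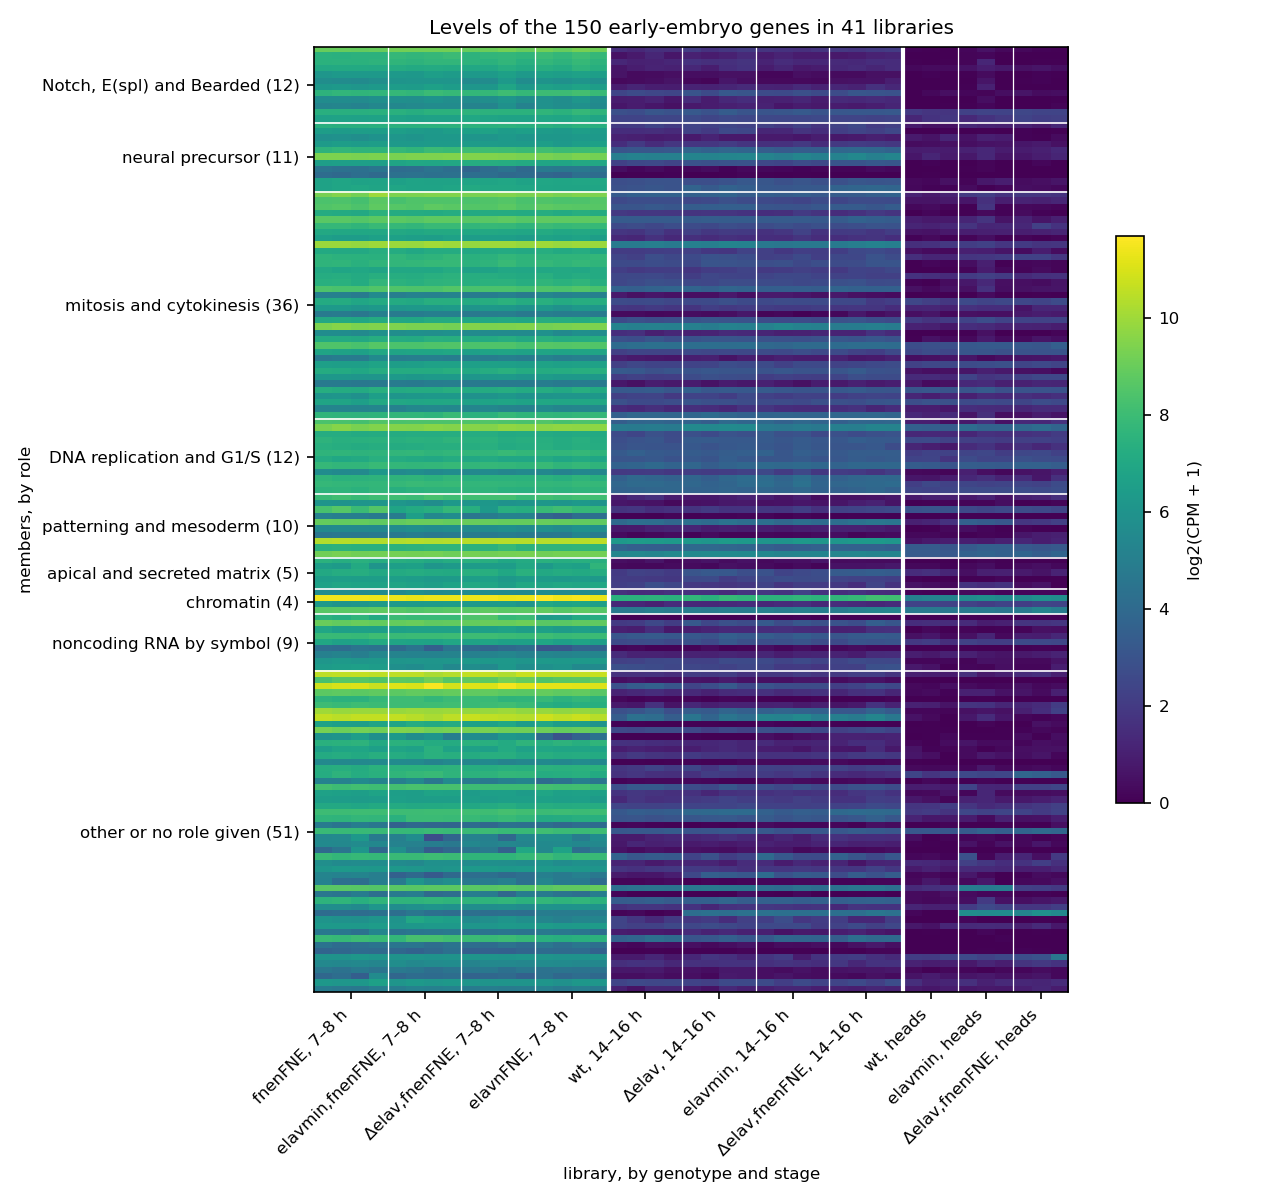
Level of each of the 150 members (rows, grouped by role, number of members in parentheses) in each of the 41 libraries (columns, grouped by genotype and stage), as log2(CPM + 1). The 16 libraries of 7–8 h are bright throughout, whereas medians in the wild-type groups were 3.06 CPM at 14–16 h and 0.408 CPM in heads.

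The genotype Δelav,fnenFNE was sampled at all 3 stages in libraries that the selection did not use, and served to compare the stages again. By the study's methods the early embryos were sequenced with shorter reads than the later stages, so stage and sequencing cannot be told apart in any comparison of stages. Genes were tested with edgeR's quasi-likelihood test, adjusted over all genes tested, and are called changed at an adjusted p under 0.05. Of the 150 members, 149 were higher at 7–8 h than at 14–16 h and 1 was lower, where 41.9% and 48.2% of all genes tested were called higher and lower. The members' median log2 fold change was 4.56, also with lncRNA:CR9284, at 0 in all 14–16 h libraries of the genotype, set to a floor of 3 counts per library, against -0.16 for all genes tested. Between 7–8 h and heads, 149 were again higher and 1 lower, beside 44.1% and 45.4% of all genes. Their median was 7.79, or 7.72 with the 11 members at 0 in all Δelav,fnenFNE head libraries set to the floor of 3 counts per library, against -0.01 for all genes tested. The member that was lower at 7–8 h was sordd2 in both cases. The 14–16 h libraries alone would not have passed the filter on low counts for 22 of the 150 members, and the head libraries alone for 73. All of these were called higher, a direction that the filter and the selection favour. For the neuroblast factor wor, the mean in Δelav,fnenFNE was 149.5 CPM at 7–8 h, 7.62 CPM at 14–16 h and 0.0468 CPM in heads. CycB had 665.2, 10.4 and 2.52 CPM.

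Library totals ran from 17668742 to 51377771 counts. The transcripts of elav counted here include untranslated exons, so they do not check the Δelav label: elav had 168–185 CPM in wild-type 14–16 h embryos, 549–629 CPM in Δelav, 526–664 CPM in Δelav,fnenFNE and 337–364 CPM in elavmin. At 14–16 h, libraries 3 and 4 of Δelav,fnenFNE had coverage placed further along the gene (mean relative position 0.516 and 0.515, against 0.494–0.501 in the other libraries of that age), and in heads library 2 of Δelav,fnenFNE did so (0.558, against 0.509–0.524). Summed CPM of 4 neuronal markers other than elav (nSyb, Syt1, brp and futsch) was 1267–1402 in wild-type 14–16 h embryos, 1029–1216 in Δelav, 1098–1221 in Δelav,fnenFNE and 1137–1281 in elavmin, so both Δelav genotypes lay below wild type. With elav added the sums were 1441–1586, 1596–1846, 1669–1802 and 1474–1645, above wild type in both Δelav genotypes. That of 4 haemocyte markers was 371–395, 314–324, 268–332 and 310–325, and that of 5 muscle markers was 28954–29375, 29938–30932, 29646–31326 and 30828–31593. That of 4 germ line and maternal markers was 16.5–19.7, 28.1–33.6, 20.6–28.6 and 16.9–19.8. The part of these shifts, or of uneven age among pools, in the results at that age was not tested.

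At 7–8 h the question was how the early genes stood in embryos without ELAV, with little ELAV or with nFNE made from the elav locus, each against fnenFNE. All 150 members passed the filter on low counts in these comparisons, and the 3 of them share the control libraries that also chose the members. The selection took genes with high means in those libraries, which favours lower values in any other group, so nothing is read from the balance of directions. Summed CPM of 4 haemocyte markers was 247–287 in fnenFNE, 286–312 in Δelav,fnenFNE, 219–259 in elavmin,fnenFNE and 220–241 in elavnFNE, and that of 4 germ line and maternal markers was 25.9–60.3, 23.7–27.8, 17.6–23.3 and 19.4–22.6. For elavnFNE both lay below the control without overlap, as did the germ line and maternal sum for elavmin,fnenFNE. In the same order, 5 muscle markers summed to 12.2–44.4, 8.56–95.2, 13.9–42.2 and 13.5–83.0 CPM. For 5 epidermis and cuticle markers the sums were 173–356, 101–308, 77.4–312 and 156–329 CPM, so both spread widely within groups. The part of these values, or of uneven age among pools, in the results at this age was not tested. In elavnFNE, 19 members were higher and 11 lower, where 4.37% and 5.35% of all genes were called. Among the E(spl) and Bearded genes, 9 of 12 were called higher and none lower, with a median log2 fold change of 0.28 against -0.01 for all genes tested. Of the 13 other genes of the Notch list, 1 was higher and none lower.

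E(spl)m7-HLH, a repressor of proneural genes, had 186, 205, 202 and 209 CPM in the 4 control libraries and 259, 260, 295 and 246 CPM in elavnFNE, so the groups did not overlap. Its log2 fold change was 0.40 ± 0.07 (SE, adjusted p = 0.00205). Ocho, a Bearded family gene, had 179, 169, 181 and 182 CPM in the control and 251, 211, 270 and 221 CPM in elavnFNE, again apart (0.42 ± 0.08, adjusted p = 0.00436). E(spl)m4-BFM, E(spl)mdelta-HLH, E(spl)m5-HLH, E(spl)m3-HLH, E(spl)malpha-BFM, Brd and E(spl)m2-BFM were the others called, with log2 fold changes of 0.24 to 0.47, and Tom, E(spl)mgamma-HLH and E(spl)m8-HLH did not pass the test. Library 3 of elavnFNE was the highest of its group for 11 of the 12 Notch members, with a summed level of 2372 CPM against 1952–2185 CPM in the other 3 and 1730–1801 CPM in the control.

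The neural precursor genes called higher were 3 in elavnFNE: pon, whose product localises Numb in dividing neuroblasts, sens, a zinc finger factor of sensory organ precursors, and wor. They were 3 of 11 tested, where 4.37% of all genes were called higher. The values of pon were 189, 206, 192 and 195 CPM in the control and 273, 250, 260 and 269 CPM in elavnFNE, without overlap (log2 0.43 ± 0.05, adjusted p = 9.56e-05). Also higher were Chrac-16, a subunit of a chromatin remodelling complex (73.8 to 111 CPM), dap (693 to 836 CPM), jumu, gsb, CG12011, Mink and sordd2. No mitosis member was called.

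Among the 11 members that were lower in elavnFNE, CG7763 had the smallest adjusted p, with 259, 244, 266 and 253 CPM in the control and 163, 146, 167 and 161 CPM in elavnFNE (log2 -0.68 ± 0.05, adjusted p = 8.88e-06). Ir64a, a chemosensory ionotropic receptor, had 61.9, 65.9, 94.5 and 55.9 CPM against 14.7, 6.73, 11.6 and 19.9 CPM, without overlap (-2.38 ± 0.33, adjusted p = 0.00569). sisA, an X-linked counting element of sex determination, fell from a mean of 30.9 to 15.1 CPM. The transporter MFS1 (62.4 to 37.6 CPM), the glycosyltransferase gene Ugt35D1 (243 to 172 CPM), CG33099, CG14736, CG42831 and 3 noncoding RNA genes, lncRNA:CR30009, lncRNA:CR45247 and lncRNA:marge, were the others.

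In Δelav,fnenFNE at 7–8 h, 2 members were higher and 3 lower than in fnenFNE, where 1.29% and 1.67% of all genes were called. DESeq2 called 13 members in place of these 5, and a fit of all 7–8 h groups 9. The neuroblast factor wor, of the Snail family, had 93.0, 95.1, 95.7 and 96.1 CPM in the control and 150, 156, 149 and 143 CPM in Δelav,fnenFNE, with every mutant library above every control library. The log2 fold change was 0.67 ± 0.05 (adjusted p = 2.1e-05). pon rose as well, to 263, 267, 261 and 245 CPM (0.42 ± 0.05, adjusted p = 0.000883). The 3 lower members were FDY, a gene of the Y chromosome (35.8 to 17.5 CPM), CG14736 (26.2 to 17.2 CPM) and lncRNA:CR30009 (89.4 to 55.2 CPM).
The calls of wor, pon and FDY held without any 1 library. That of CG14736 was lost without library 1 or 2 of the mutant or library 1 or 3 of the control (adjusted p 0.0552 to 0.0684), and that of lncRNA:CR30009 without library 1 or 4 of the mutant or any 1 of the 4 control libraries (0.0574 to 0.0838), so that 3 members were called without mutant library 1, control library 1 or control library 3. Library 3 of Δelav,fnenFNE stood above the other 3 for Bearded family genes, with 79.0 CPM of Brd against 47.3–50.8 and 118 CPM of E(spl)m4-BFM against 70.1–74.3.

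In elavmin,fnenFNE at 7–8 h, 10 members were higher and 5 lower, beside 3.83% and 2.57% of all genes. Of the higher ones 4 were Notch members: Brd, Tom, Ocho and E(spl)m4-BFM. Brd had 52.0, 49.2, 47.5 and 53.4 CPM in the control and 64.5, 68.7, 67.3 and 67.6 CPM in the mutant, without overlap (log2 0.39 ± 0.06, adjusted p = 0.00217). Tom had 504, 504, 489 and 509 against 591, 595, 585 and 599 CPM, also apart (0.23 ± 0.04, adjusted p = 0.0045). wor rose to 113, 124, 119 and 130 CPM (0.34 ± 0.05, adjusted p = 0.00491), and sens, lncRNA:CR9284, CG4440, Lime and CG13427 were the others.
The lower members were CG14736, FDY, lncRNA:CR30009, CG10005 and tld, the metalloprotease that frees Dpp from its inhibitor. FDY had 38.4, 35.2, 38.1 and 31.5 CPM in the control and 11.4, 15.2, 9.0 and 15.0 CPM in the mutant (-1.52 ± 0.15, adjusted p = 0.000586). tld had 318, 396, 247 and 380 against 113, 142, 158 and 220 CPM, apart but with a wide spread (-1.09 ± 0.24, adjusted p = 0.047), and its call was lost without mutant library 1, 2 or 3 or control library 1, 2 or 4 (0.0709 to 0.123).
The call of Ocho was lost without control library 2 (adjusted p = 0.0551) and that of lncRNA:CR9284 without mutant library 3 or 4 or control library 2 (0.0576 to 0.0619), while Brd missed the threshold when all 7–8 h groups shared a fit (0.074). Without mutant library 3 or control library 1 the count of members called was 9, and without control library 2 it was 8.

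**Figure D2:**
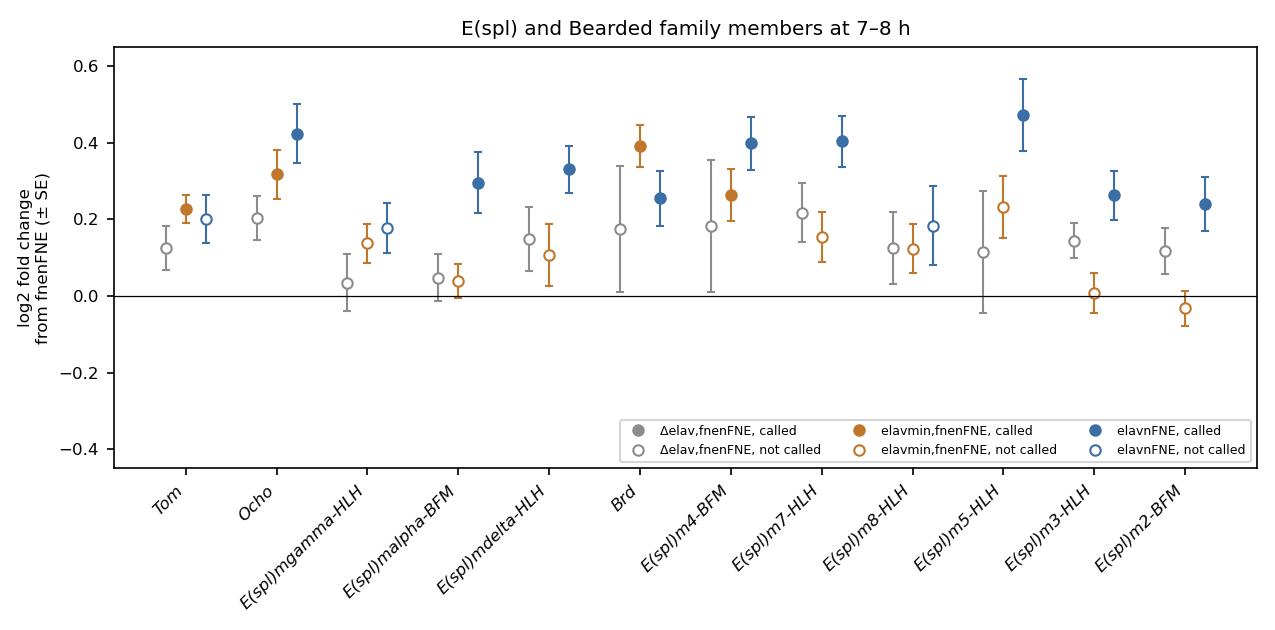
Log2 fold change from fnenFNE (± SE of the fit, 4 libraries a group) of the 12 E(spl) and Bearded members at 7–8 h in Δelav,fnenFNE, elavmin,fnenFNE and elavnFNE, with filled points for those called. In elavnFNE 9 are filled, in elavmin,fnenFNE 4 and in Δelav,fnenFNE none.

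The comparisons between the mutants of 7–8 h used no library of the selection. Between elavnFNE and Δelav,fnenFNE, 6 members were higher in elavnFNE and 12 lower, beside 2.94% and 4.21% of all genes. CG7763, Ugt35D1, MFS1, CG33099, Lime, Ir64a and sisA were among the lower ones, and so were wor (149.5 CPM in Δelav,fnenFNE, 123.9 CPM in elavnFNE, -0.29 ± 0.06, adjusted p = 0.00715) and tap, a neurogenic bHLH factor. sordd2, FDY, Chrac-16, Cap-D2, RhoGAP54D and l(1)sc, a proneural gene of the achaete-scute complex, were higher. No Notch member passed the test in this direct comparison, although their median log2 fold change was 0.16. Without library 3 of Δelav,fnenFNE, the one with high Brd, 31 members were called. The call of RhoGAP54D was lost without library 1, 2 or 4 of Δelav,fnenFNE or library 1 or 3 of elavnFNE (adjusted p 0.0576 to 0.0686).

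Between elavmin,fnenFNE and Δelav,fnenFNE, 2 members were higher in elavmin,fnenFNE (NimC4, a phagocytic receptor, and FBgn0028519) and 2 lower (wor and tap), beside 1.8% and 0.713% of all genes. DESeq2 called 11 members here and a fit of all 7–8 h groups 9. wor had a log2 fold change of -0.33 ± 0.05 (adjusted p = 0.012). None of the 4 calls held without library 1 of Δelav,fnenFNE (adjusted p 0.0505 for wor, 0.0603 for NimC4, 0.147 for FBgn0028519, 0.157 for tap), and 2 members were called without library 2 of Δelav,fnenFNE or library 3 or 4 of elavmin,fnenFNE.

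At 14–16 h the comparison with wild type asks which early genes remained higher or lower when ELAV was absent or reduced. The wild-type libraries also chose the members, for low means, which favours higher values in any other group. A member also had to pass the filter on low counts to be tested, and the wild-type libraries alone would not have passed it for 8 of the members tested in Δelav, 10 in Δelav,fnenFNE and 6 in elavmin (called higher among these were sordd2 in all 3 genotypes and Ir64a and Muc30E in Δelav,fnenFNE). The counts and medians against wild type are therefore a description, and nothing is read from their direction. In Δelav, 133 members were tested, of which 28 were higher and 3 lower, where 11% and 11.7% of all genes were called. Their median log2 fold change was 0.21, against 0.01 for all genes tested. In Δelav,fnenFNE, 136 were tested, 29 higher and 3 lower beside 12.8% and 12.8% of all genes, with a median of 0.16. In elavmin, 132 were tested, 14 higher and 8 lower beside 15.2% and 14.4%, with a median of 0.10. The share of counts taken by the members was 0.1003–0.1109% in wild type, 0.1106–0.1278% in Δelav, 0.113–0.1325% in Δelav,fnenFNE and 0.1069–0.1191% in elavmin.

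**Figure D3:**
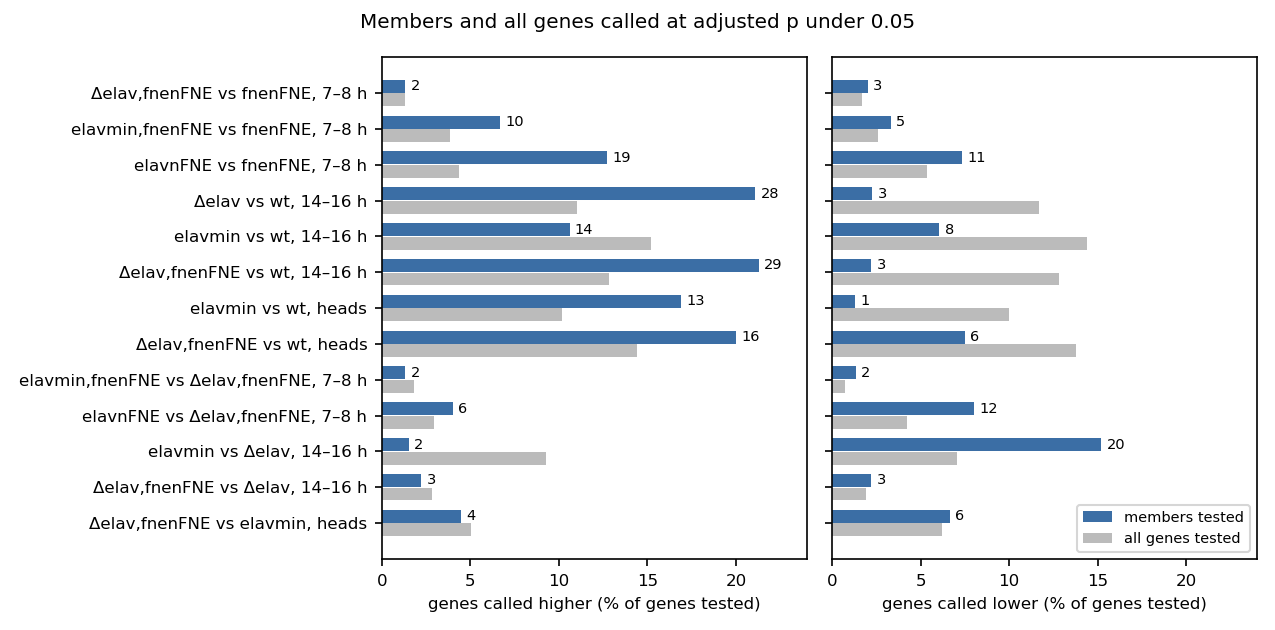
Share of genes called higher (left) and lower (right) in each comparison, for members tested (blue, with the number called) and all genes tested (grey). In Δelav and Δelav,fnenFNE at 14–16 h, 28 and 29 members were higher and 3 lower in each, beside 11% and 11.7% of all genes in Δelav, in a comparison whose wild-type libraries also chose the members.

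Of the neural precursor members, 5 of 9 tested were higher in Δelav and none lower: pon, insb, tap, wor and mira. All genes called higher and lower made up 11% and 11.7% in Δelav, 12.8% and 12.8% in Δelav,fnenFNE and 15.2% and 14.4% in elavmin. pon had 7.30, 7.87, 7.89 and 7.90 CPM in wild type and 13.4, 11.9, 13.7 and 12.8 CPM in Δelav, without overlap (log2 0.78 ± 0.08, adjusted p = 1.3e-05). insb, a nuclear repressor of Notch targets in neural precursors, had 1.88, 1.90, 2.02 and 1.70 CPM against 3.99, 2.92, 4.97 and 4.59 CPM (1.17 ± 0.17, adjusted p = 0.00026). mira, the adaptor that segregates fate determinants in neuroblasts, rose from a mean of 33.2 to 38.8 CPM (0.26 ± 0.06, adjusted p = 0.00489).
In Δelav,fnenFNE, 4 of 9 were called: tap (12.4, 13.1, 13.9 and 13.2 CPM, against 6.49, 6.91, 7.71 and 6.99 CPM in wild type; 0.92 ± 0.08, adjusted p = 9.63e-06), pon, insb and wor. In elavmin 2 of 9 were called, pon (9.91, 8.71, 9.72 and 9.48 CPM; 0.28 ± 0.08, adjusted p = 0.0161) and tap (8.42, 8.08, 8.5 and 8.75 CPM; 0.26 ± 0.08, adjusted p = 0.0292). In the same comparisons, of 19 neuron differentiation genes tested, none of them a member, 12 were lower and 1 higher in Δelav, 11 and 2 in Δelav,fnenFNE, and 8 and 1 in elavmin. Of 31 proneural and neuroblast genes tested, members included, 11 were higher and none lower in Δelav, 10 and none in Δelav,fnenFNE, and 5 and 1 in elavmin.

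Of 12 replication members tested, 2 were higher in Δelav (dap and Mcm3) and none lower, beside 11% and 11.7% of all genes. The CDK inhibitor dap, which ends cell cycles in embryos, had 28.2, 27.4, 29.3 and 26.7 CPM in wild type and 44.5, 43.7, 47.7 and 45.2 CPM in Δelav, the smallest adjusted p of any member but sordd2 in that comparison (0.73 ± 0.05, adjusted p = 5.84e-07). In Δelav,fnenFNE dap was at 31.8, 30.7, 38.2 and 36.5 CPM, above every wild-type library (0.31 ± 0.07, adjusted p = 0.00564), and in elavmin at 25.9, 24.1, 28.6 and 24.9 CPM, which overlapped wild type and was not called. Of 35 mitosis members tested in Δelav, 4 were higher and none lower: Spindly, an adaptor of dynein at kinetochores (3.45 to 5.75 CPM), the kinase polo, CycA and the condensin subunit Cap-D2. The share called higher was near the 11% of all genes, so nothing is read from it. In elavmin 3 were lower, CycA (28.6 to 24.1 CPM), scra, which encodes anillin (18.0 to 14.7 CPM), and Incenp, and SMC2 was higher. Of all genes, 14.4% were lower and 15.2% higher in elavmin.

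Among the Notch members, 3 of 12 tested were higher in Δelav (E(spl)mgamma-HLH, E(spl)m7-HLH and Tom), 5 of 12 in Δelav,fnenFNE (Tom, E(spl)m7-HLH, E(spl)m8-HLH, E(spl)m3-HLH and E(spl)malpha-BFM) and none of 11 in elavmin, with every Notch member at 9.68 CPM or below in each 14–16 h library. Their median log2 fold changes were 0.58, 0.58 and 0.22, where 11%, 12.8% and 15.2% of all genes were called higher. Tom, for example, had a mean of 1.86 CPM in wild type, 2.82 CPM in Δelav and 2.93 CPM in Δelav,fnenFNE.

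Of the apical matrix genes, neo, which encodes a zona pellucida protein that shapes epidermal cells, was higher in all 3 genotypes. It had 3.0, 3.92, 3.62 and 2.94 CPM in wild type, 7.37, 8.54, 8.42 and 6.09 CPM in Δelav, 9.21, 9.66, 10.3 and 9.46 CPM in Δelav,fnenFNE and 6.79, 4.19, 5.0 and 5.89 CPM in elavmin. None of the mutant libraries overlapped wild type (1.21 ± 0.14, adjusted p = 3.82e-05; 1.54 ± 0.11, adjusted p = 2.74e-06; 0.69 ± 0.16, adjusted p = 0.00712). A related gene, nyo, went the other way in Δelav, from a mean of 4.51 to 2.64 CPM (-0.73 ± 0.17, adjusted p = 0.00769). The other lower members in Δelav were Ugt35D1 (14.6 to 8.37 CPM) and FBgn0028519 (9.54 to 4.61 CPM), the latter with an adjusted p of 0.0575 when all groups of that age shared a fit.

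In Δelav,fnenFNE, tld rose from 2.25 to 4.54 CPM (1.02 ± 0.14, adjusted p = 0.000296) and HmgD from 181 to 251 CPM (0.49 ± 0.08, adjusted p = 0.00104). The lower members were CG12011 (8.82 to 4.60 CPM), lmd (1.37 to 0.499 CPM) and the phosphatase stg, the activator of mitotic entry (34.6 to 29.7 CPM, adjusted p = 0.0251). The call of stg was lost without mutant library 1 or 4 or wild-type library 1 or 3 (adjusted p 0.0506 to 0.0741), and without both libraries of shifted coverage (0.0539). In elavmin, Obp99a rose from 9.52, 19.3, 17.1 and 10.1 CPM to 38.2, 35.5, 44.9 and 29.6 CPM (1.40 ± 0.27, adjusted p = 0.00884), yellow-e2 from 2.96 to 5.42 CPM and lncRNA:marge from 3.60 to 7.34 CPM. lncRNA:CR30009, rib, a factor of tracheal and salivary tubes (82.5 to 69.5 CPM), and NimC4 were among the lower ones, and the call of NimC4 was lost without elavmin library 2 or 4 or wild-type library 2 or 3 (adjusted p 0.0595 to 0.0708).

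**Figure D4:**
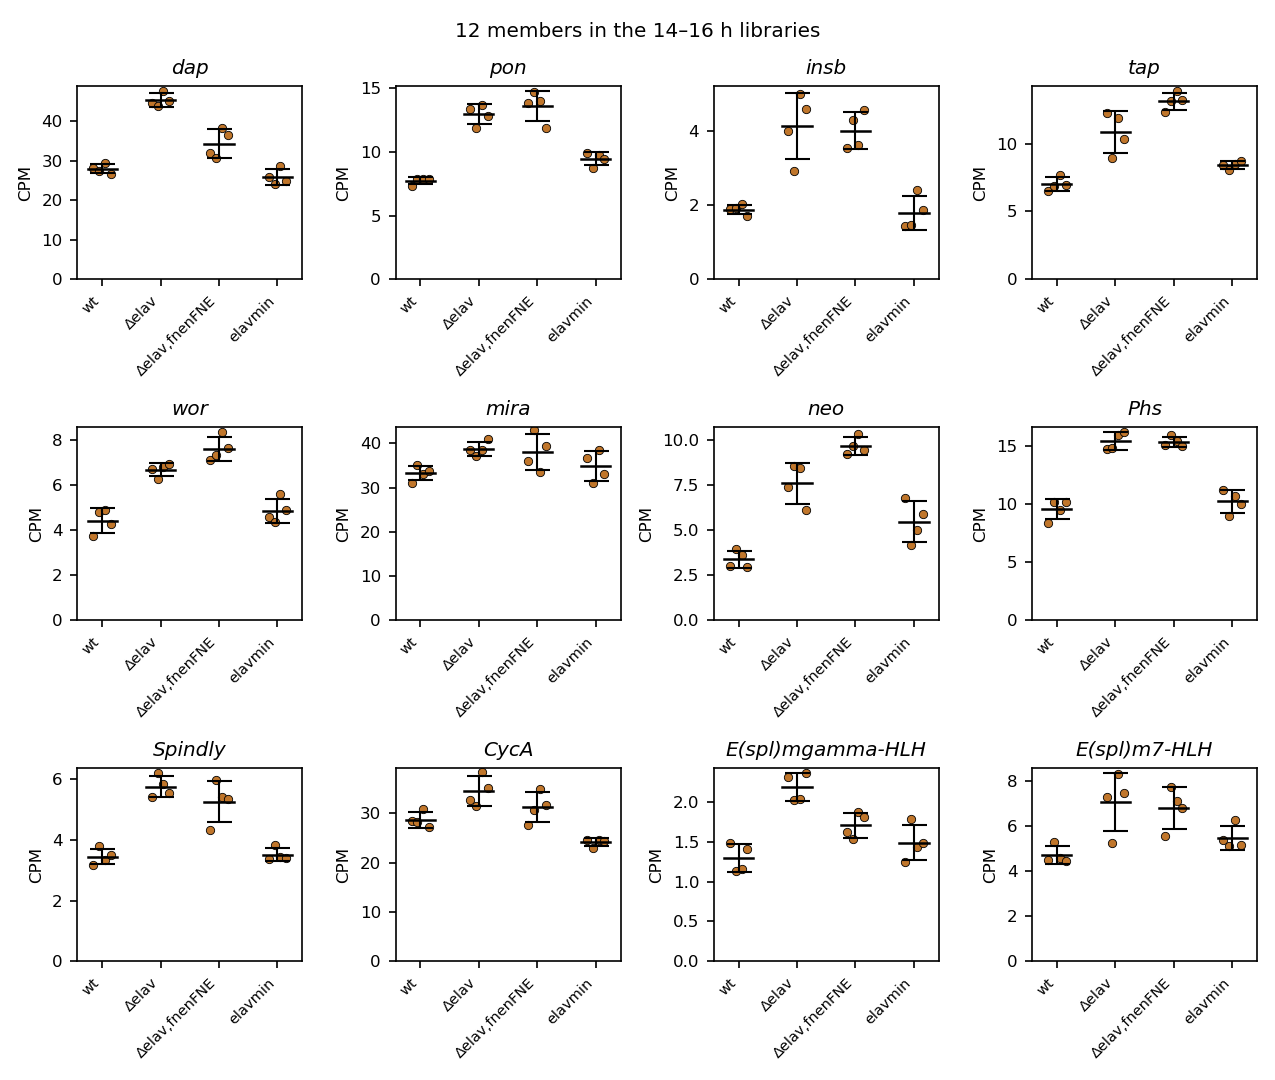
CPM of 12 members in each of the 4 libraries of wild type, Δelav, Δelav,fnenFNE and elavmin at 14–16 h, with the mean and SD. For dap the 4 Δelav libraries (43.7–47.7 CPM) sit above all others, and for tap the Δelav,fnenFNE libraries (12.4–13.9 CPM) sit above those of elavmin (8.08–8.75 CPM).

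Comparisons of the mutants with each other at 14–16 h used no library of the selection. Of 132 members tested between elavmin and Δelav, 20 were lower in elavmin and 2 higher, where 7.06% and 9.26% of all genes were called. The median log2 fold change of the members was -0.09, against 0.01 for all genes tested. Of the 150 genes that the same rule chose for wild-type 14–16 h embryos, 19 were higher in elavmin and 4 lower. A difference in age between these pools was not tested. dap was lower by -0.84 ± 0.06 (adjusted p = 7.26e-06), with all elavmin libraries (24.1–28.6 CPM) below all Δelav libraries (43.7–47.7 CPM). Of 9 neural precursor members tested 4 were lower (pon, insb, wor and tap), and of 35 mitosis members 7 (CycA, Spindly, polo, Cap-D2, scra, Spc105R and Incenp). CycA had 24.5, 23.0, 24.6 and 24.4 CPM in elavmin and 32.7, 31.5, 38.4 and 35.1 CPM in Δelav (-0.54 ± 0.07, adjusted p = 0.000289). insb had 1.42, 1.45, 2.41 and 1.86 CPM, all below the Δelav libraries (-1.24 ± 0.21, adjusted p = 0.00207). Of the neuron differentiation genes, 4 were higher in elavmin and 1 lower. The higher members were Obp99a and the merged gene sala+CG43355, and the call of the latter was lost without library 1, 2 or 4 of Δelav or library 1, 2 or 3 of elavmin (adjusted p 0.0551 to 0.115).

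Between Δelav,fnenFNE and Δelav, 135 members were tested, and 3 were higher (Ir64a, tld and Ugt35D1) and 3 lower (dap, ptc and jumu), where 2.85% and 1.94% of all genes were called. The Δelav libraries alone would not have passed the filter for 7 of the 135, of which only Ir64a was called, in the direction that the filter favours. dap was lower in Δelav,fnenFNE by -0.41 ± 0.07 (adjusted p = 0.00536). Without both libraries of shifted coverage 2 members were called, and the adjusted p of tld was 0.074, of ptc, the Hedgehog receptor, 0.121, of Ugt35D1 0.257 and of jumu 0.307. The call of Ugt35D1 was also lost without Δelav library 1, 2 or 4 or Δelav,fnenFNE library 3 or 4 (0.0741 to 0.101), and that of jumu without any 1 library but library 1 of Δelav,fnenFNE (0.0543 to 0.146). No member of the neural precursor, mitosis or Notch roles was called.

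In heads most members were near or below the filter: 77 were tested between elavmin and wild type and 80 between Δelav,fnenFNE and wild type, and again the wild-type libraries had chosen the members for low means. Those libraries alone would not have passed the filter for 10 of the 77 and 13 of the 80, of which 4 (E(spl)malpha-BFM, dgt3, nyo and sordd2) and 5 (Ama, Mcm10, dgt3, ftz and sordd2) were called higher and none lower, so the balance of directions and the medians are tilted upward by the selection and the filter. In elavmin, 13 were higher and 1 lower, where 10.2% and 10% of all genes were called, with a median log2 fold change of 0.31 against 0.01 for all genes tested. In Δelav,fnenFNE, 16 were higher and 6 lower beside 14.4% and 13.8%, with a median of 0.35. The head groups differed in the summed RNA of cell type markers, in which fewer cells and less RNA per cell cannot be told apart. Summed CPM of 5 photoreceptor markers was 58819–61840 in wild type, 34285–34813 in elavmin and 501–538 in Δelav,fnenFNE, that of 4 fat body markers was 225–571, 986–1410 and 617–1098, and that of 4 haemocyte markers was 523–552, 507–540 and 482–545. That of 5 muscle markers was 5777–7154, 6496–7657 and 10049–10555, that of 5 epidermis and cuticle markers 110–130, 110–125 and 194–276, and that of the 4 neuronal markers other than elav 5424–6248, 4905–6159 and 4791–5390. Of 17 photoreceptor genes, 16 were lower in elavmin and 17 in Δelav,fnenFNE. The part of these differences in the members' values was not tested.

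The largest elavmin change outside sordd2 was in KP78b+KP78a, a merged pair of kinase genes, with 1.6, 2.0 and 2.29 CPM in wild type and 29.7, 28.4 and 30.5 CPM in elavmin heads (log2 3.82 ± 0.13, adjusted p = 1.79e-07). The 3 Δelav,fnenFNE heads held 3.68, 3.56 and 2.86 CPM. Dtg, a target of Dpp, rose from 1.10, 1.29 and 2.25 CPM to 11, 9.65 and 8.16 CPM (2.54 ± 0.25, adjusted p = 0.000204), and nyo from 0.337 to 2.19 CPM (2.60 ± 0.35, adjusted p = 0.000979). RhoGAP54D and HmgD were also higher. Of 24 mitosis members tested, 5 were higher and none lower (CycB, scra, Spindly, Ndc80 and dgt3), beside 10.2% and 10% of all genes. CycB had 1.14, 0.762 and 1.10 CPM in wild type and 3.11, 3.44 and 2.23 CPM in elavmin. PCNA and E(spl)malpha-BFM completed the higher members, and tld was the lower one (6.91 to 4.79 CPM, adjusted p = 0.00742).
The summed CPM of the 36 mitosis members was 79.0, 93.4 and 70.8 in the 3 elavmin libraries and 56.2–58.1 in wild type, and elavmin library 2 was the highest of its group for 22 of the 36. Without that library 13 members were called, 11 higher and 2 lower, and without wild-type library 2 there were 9.

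In Δelav,fnenFNE heads the higher members included NimC4 (0.913, 0.952 and 0.792 CPM in wild type, 3.71, 3.65 and 4.44 CPM in the mutant; 1.97 ± 0.22, adjusted p = 0.000191), Spindly (1.64, 1.71 and 1.5 against 3.74, 4.58 and 4.64 CPM; 1.23 ± 0.19, adjusted p = 0.00144), Ama (0.137 to 2.24 CPM), Lime, a zinc finger factor (3.46 to 10.7 CPM), Rrp1, an endonuclease of DNA repair (8.14 to 14.1 CPM), and the pair-rule gene ftz (0.168 to 0.88 CPM). Ama and ftz passed the filter only through the mutant libraries and were not tested between elavmin and wild type. The groups did not overlap for any of these. The lower members were sens (0.874 to 0.129 CPM), the spindle orientation protein mud (1.49 to 0.604 CPM), tld (6.91 to 4.94 CPM), the checkpoint kinase BubR1, neo and Mcm3. The call of mud was lost when all head groups shared a fit (adjusted p = 0.0617), that of BubR1 without mutant library 1 or 3 or wild-type library 2 or 3 (0.0642 to 0.0934) and that of neo without any 1 library but mutant library 3 (0.0532 to 0.102). Without wild-type library 2, 14 members were called.

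Directly compared, Δelav,fnenFNE and elavmin heads differed in 10 of 90 members tested, 4 higher and 6 lower in Δelav,fnenFNE, where 5.05% and 6.23% of all genes were called. The lower ones were KP78b+KP78a (-3.19 ± 0.12, adjusted p = 2.68e-07), Dtg (9.61 CPM in elavmin, 3.03 CPM in Δelav,fnenFNE, adjusted p = 0.000311), nyo, Obp99a, sens and the midzone protein feo. The higher ones were Lime (4.70 and 10.7 CPM, adjusted p = 0.00382), ftz, CG7102 and Ama. The elavmin libraries alone would not have passed the filter for 19 of the 90, of which 2 (Ama and ftz) were called higher. The Δelav,fnenFNE libraries alone would not have passed it for 17, of which 3 were called lower. The filter favours the direction of these calls, so nothing is read from it. Without library 1 of Δelav,fnenFNE or library 3 of elavmin, 6 members were called. The calls of CG7102 (Δelav,fnenFNE library 1 or 2, elavmin library 1 or 3), Ama (Δelav,fnenFNE library 3, any 1 elavmin library), Obp99a (Δelav,fnenFNE library 1) and sens (Δelav,fnenFNE library 1 or 2, elavmin library 2) were lost without a library, with adjusted p of 0.0503 to 0.113.

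At 14–16 h, sordd2 and FDY were higher in all 3 mutants than in wild type, and Ir64a was called higher in 1 of them. sordd2 was nearly absent from wild type, with 0.13, 0.199, 0 and 0.108 CPM at 14–16 h and 0.137, 0 and 0 CPM in heads. At 14–16 h it had 17.8–20.4 CPM in Δelav, 18.3–22.8 CPM in Δelav,fnenFNE and 18.8–20.2 CPM in elavmin, with log2 fold changes of 7.41 ± 0.23 (adjusted p = 6.12e-10), 7.47 ± 0.25 (adjusted p = 2.21e-08) and 7.40 ± 0.22 (adjusted p = 2.12e-09). These wild-type libraries also chose the members for low means, and sordd2 passed the filter on low counts only through the mutant libraries. Its fold changes and p-values are therefore a description. The wild-type flies were a stock of their own, so a difference of strain background and the mutations cannot be told apart for this gene. The same holds for every other member compared with wild type, FDY, Ir64a and KP78b+KP78a included, and between mutants kept as separate lines. The study excluded some earlier 3′ UTR targets as false positives that it traced to differing strain backgrounds. In heads sordd2 had 48.3–52.2 CPM in elavmin and 39.0–57.0 CPM in Δelav,fnenFNE. At 7–8 h all 4 groups held it, at 16.6–28.7 CPM. Its place among the members therefore rests on the wild-type groups: in Δelav,fnenFNE it was lower at 7–8 h than at either later stage, by -0.56 ± 0.07 and -1.42 ± 0.11 (adjusted p = 2.3e-05 and 6.01e-07).

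FDY had 0.652–0.998 CPM in wild-type 14–16 h embryos and 4.85, 10.6, 9.49 and 7.92 CPM in Δelav, 5.49, 9.90, 6.68 and 9.92 CPM in Δelav,fnenFNE and 16.6, 7.07, 9.72 and 8.72 CPM in elavmin, without overlap with wild type in any (adjusted p = 6.27e-06, 3.52e-06 and 9.64e-05). FDY arose from an autosomal segment by duplication, so the assignment of its reads is uncertain where it resembles its parent gene. Ir64a had no count in the 4 wild-type 14–16 h libraries, 1 library with 0.0689 CPM and 3 with none in Δelav, 0.219–0.517 CPM in elavmin and 1.19, 1.17, 1.12 and 1.27 CPM in Δelav,fnenFNE. The Δelav,fnenFNE mean of 1.19 CPM was at least 14.3-fold higher than the floor of 3 counts per library in wild type (0.0833 CPM, counting error only; adjusted p = 1.49e-05). Ir64a passed the filter on low counts only through the Δelav,fnenFNE libraries, and the wild-type libraries also chose the members, so this value is a description.

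**Figure D5:**
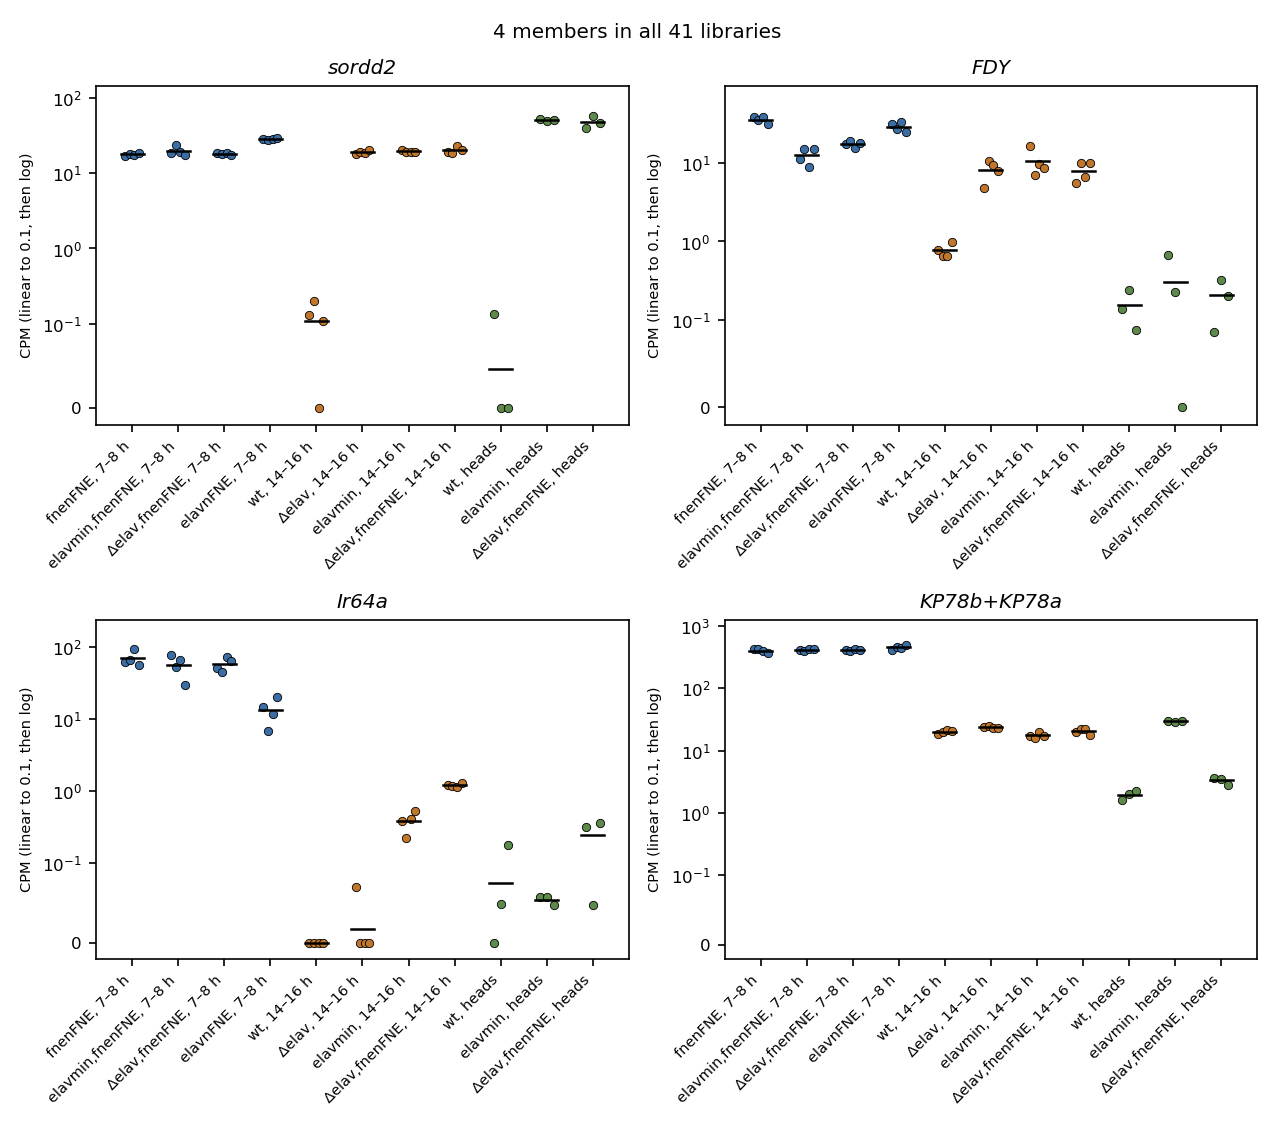
CPM of sordd2, FDY, Ir64a and KP78b+KP78a in each of the 41 libraries by genotype and stage, on an axis that is linear to 0.1 and logarithmic above, with bars at the group means. For sordd2 the wild-type points lie below 0.2 CPM and all other libraries at 16.6 CPM or above.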

How the data were processed

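Libraries were stranded mRNA preparations. Reads were aligned to dm6 in the authors' snakePipes run, and HTSeq assigned them to exon bins of Ensembl 96 genes. The labels also list STAR, featureCounts and Subread without a version. The deposited values used here are raw counts for 84619 such bins, which the authors did not normalize. Library columns repeated between tables (19) held identical counts and were used once. The tables also hold the authors' own exon usage comparisons, and other files their 3′ UTR comparisons, which were not used here.

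Counts were summed per gene, and CPM used library totals, which ran from 17668742 to 51377771. Genes were tested with edgeR 4.0.16 (limma 3.58.1, R 4.3.3), with TMM normalization, the default filter on low counts, robust quasi-likelihood fits of the 2 groups compared and two-sided tests. P-values were Benjamini-Hochberg adjusted over all genes tested, with calls at an adjusted p under 0.05. SEs are those of log2 fold changes. Libraries are separate pools by their labels, so p-values measure the spread between pools. Tables were made in Python 3.11.15 (numpy 2.4.6, pandas 2.3.3, matplotlib 3.10.9). On simulated data with 200 genes changed by a log2 fold change of 1, the test found 90.5% with 13 false calls for Δelav,fnenFNE at 7–8 h (9828 genes), 100% with 11 for Δelav at 14–16 h (11345 genes) and 97% with 12 for elavmin heads (10639 genes). The changed genes were drawn only from genes well above the filter on low counts, and the simulated spread followed its trend with level. These shares therefore do not describe members at low levels, as most were in heads.

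Named were the 25 members with the highest ratio, the 5 called members with the smallest adjusted p in each direction of each comparison of genotypes, and members of 17 gene lists; other members called were added after their values were seen, to complete a group. The members and lists were chosen with earlier results of these data known, and roles were assigned by hand once the members were known. Sequence windows (250 bases before to 50 after the start, and the last 300 bases) came from the RefSeq annotation of Release 6. Alternatives were DESeq2 1.42.0 and its size factors, no filter on low counts, a fit of all groups of a stage, a replicate block, leaving out each library and other settings of the selection.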

Additional observations from a re-analysis of the deposited data

Results flagged for a closer look

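Among 179 sets of 4 libraries (a named member in an embryo group), 11 had a highest or lowest library whose gap to the next exceeded Dixon's 95% critical value; chance alone would give some such sets. At 7–8 h these were the lowest elavnFNE library of MFS1 (33.5 CPM, the others 38.6–39.3) and the highest Δelav,fnenFNE library of FBgn0028519 (226.8 CPM, the others 198.5–202.3). In wild type at 14–16 h they were the lowest libraries of pon (7.30 CPM, the others 7.87–7.90) and CycB3 (5.01 CPM, the others 5.77–5.88) and the highest of CG43332 (0.483 CPM, the others 0.351–0.365), CG7763 (2.19 CPM, the others 0.540–0.756) and lncRNA:CR9284 (0.0593 CPM, the others at 0). In elavmin at 14–16 h they were the lowest library of CycA (23.0 CPM) and the highest of Spindly (3.84 CPM), and in Δelav the highest of tld (2.99 CPM, the others 2.29–2.34) and Ir64a (0.0689 CPM, the others at 0).

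For some members every mutant library lay on opposite sides of the wild-type mean at 14–16 h and in heads. The difference between the stages was not tested. In elavmin, log2 fold changes at 14–16 h and in heads were 1.03 and -0.67 for lncRNA:marge, 0.69 and -1.08 for neo, -0.25 and 0.39 for CycA, -0.51 and 1.27 for NimC4, -0.46 and 2.60 for nyo, -0.21 and 3.82 for KP78b+KP78a, -0.29 and 0.43 for scra, and -0.25 and 0.29 for rib. Of these, nyo and KP78b+KP78a were called only in heads, scra at both stages, and the other 5 only at 14–16 h.

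In Δelav,fnenFNE they were -1.42 and 0.41 for lmd, 1.02 and -0.65 for tld, -0.27 and 1.46 for Lime, 1.54 and -1.21 for neo, -0.34 and 1.97 for NimC4, and 0.29 and -0.52 for BubR1. tld and neo were called at both stages, lmd only at 14–16 h, and Lime, NimC4 and BubR1 only in heads.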

How the results depend on the processing

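Members called were recounted under 5 alternatives and without each library. In Δelav,fnenFNE at 7–8 h, where 5 were called, DESeq2 called 13 and a fit of all groups of the stage 9. For elavmin,fnenFNE against Δelav,fnenFNE (4) these gave 11 and 9, and for Δelav,fnenFNE against Δelav (6) leaving out both libraries of shifted coverage, an alternative chosen after the data had been seen, gave 2. The cause was not tested.

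Replicate letters are shared between groups, but no group pair had a correlation above 0.1 for every pair of same-lettered libraries (lowest -0.575, highest 0.692), so the letters do not pair them. With the replicate letter as a block, 25 members were called in elavmin heads (14 without the block) and 7 for elavmin,fnenFNE against Δelav,fnenFNE at 7–8 h, and the other counts stayed within 1.5 times.

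Without 1 library each, the counts ran as follows. At 7–8 h against fnenFNE they were 3 to 7 for Δelav,fnenFNE, 8 to 14 for elavmin,fnenFNE and 20 to 31 for elavnFNE, and against Δelav,fnenFNE 0 to 6 for elavmin,fnenFNE and 13 to 31 for elavnFNE. At 14–16 h they were 27 to 36 for Δelav, 16 to 23 for elavmin and 27 to 36 for Δelav,fnenFNE against wild type, 16 to 25 for elavmin against Δelav and 4 to 7 for Δelav,fnenFNE against Δelav. In heads they were 9 to 13 for elavmin and 14 to 24 for Δelav,fnenFNE against wild type and 6 to 9 between them. Both stage comparisons kept 150. Of 103 calls of named members, 82 held without any 1 library. The selection shared 146 to 150 members without a control library, 144 with TMM-scaled CPM, 137 with a pseudocount of 0.5, and 150 and 145 with CPM minimums of 5 and 20.

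Levels under 1 CPM, as for 104 members in wild-type heads, rest on few counts per library.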
